A study of Mus musculus with 2 samples.

Results

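The CD200 receptor family was examined here through Cd200r1, Cd200r4 and Cd200r3, 3 of the 27998 gene identifiers in both matrices. The members were taken by symbol, and they had been picked with their levels in these libraries already known, so their levels and the differences between the libraries are a description without a test. The material was Cas9-expressing mouse leukaemia cells driven by the MLL-AF9 fusion, grown with 10 ng/ml of mouse interleukin-3. The Jumonji library held cells that carried a guide RNA against the Jumonji domain of JMJD1C, a histone demethylase family protein. The Renilla library held cells with a control guide named for Renilla, a luciferase that mouse cells lack. Each condition had 1 library, so the guide, the culture and the library preparation cannot be told apart.

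CD200R1 is an inhibitory receptor of myeloid cells that binds CD200, a membrane glycoprotein of many other cell types. Its cytoplasmic tail has no classical inhibitory motif and instead recruits the adaptors DOK2 and DOK1 and, through them, the RAS GTPase-activating protein RASA1, which dampens RAS-ERK signalling. CD200R4 and CD200R3 are relatives with short tails that in mouse pair with the adaptor TYROBP (DAP12), a carrier of an activating motif, and mouse CD200R3 is known from basophils and mast cells. The genes lie side by side on chromosome 16.

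Barcodes under 500 genes or above 10% mitochondrial transcripts were left out, so that 575 Jumonji and 608 Renilla cells remained. They held 12809661 and 14418743 unique molecular identifiers (UMIs, each standing for a captured RNA molecule), with medians of 22123 UMIs per Jumonji cell and 23528 per Renilla cell. No barcode occurred in both libraries. The targeted gene, Jmjd1c, had 1435 UMIs in Jumonji cells and 2025 in Renilla cells, a log2 ratio of -0.33, and since 3′ counts do not read the edited site they do not check the labels. The lymphoid genes Cd3e, Cd3d and Ms4a1 had 0 UMIs in both libraries, while the neutrophil elastase gene Elane, of promyelocytes, stood at 730 CPM (UMIs scaled to a common library total) in Jumonji cells and 1769 CPM in Renilla cells.

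On the mouse build mm10 the members spanned 216 kb of the plus strand of chromosome 16. Cd200r1 (ENSMUSG00000022667) lay at 44765736 to 44794978, Cd200r4 (ENSMUSG00000062082) at 44811733 to 44839150 and Cd200r3 (ENSMUSG00000036172) at 44943678 to 44981380, with Cd200r2 at 44867097 to 44915840 between the last pair. The paralogues can be told apart by the 3′ reads of this assay as far as exact matches go. Of all windows of 50 bases in the last 500 bases of the annotated transcripts, 1019 for Cd200r1, 468 for Cd200r4 and 2836 for Cd200r3, 0 occurred in a transcript of another gene.

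The upstream sequences of Cd200r4 and Cd200r3 resemble each other, and both are shown. They are RefSeq sequences of GRCm38.p6, plus strand, for the 250 bases before the annotated start (chr16:44820478-44820727 and chr16:44943428-44943677). Capitals mark runs of at least 10 bases that are identical in the alignment of the promoter windows.
Cd200r4: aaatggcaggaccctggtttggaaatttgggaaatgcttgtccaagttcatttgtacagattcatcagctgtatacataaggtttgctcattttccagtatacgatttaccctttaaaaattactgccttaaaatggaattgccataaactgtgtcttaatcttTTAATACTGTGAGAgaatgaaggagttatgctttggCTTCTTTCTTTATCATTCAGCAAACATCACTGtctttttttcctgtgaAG
Cd200r3: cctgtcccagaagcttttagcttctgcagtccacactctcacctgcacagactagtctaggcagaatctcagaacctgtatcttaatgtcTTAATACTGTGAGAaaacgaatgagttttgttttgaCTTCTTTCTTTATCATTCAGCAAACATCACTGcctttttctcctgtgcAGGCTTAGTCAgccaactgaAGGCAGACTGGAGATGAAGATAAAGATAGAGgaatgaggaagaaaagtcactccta
Over windows that also held 50 bases after the start, -182 to 48 from the start of Cd200r4 aligned with -249 to -26 from that of Cd200r3, 180 of 231 aligned positions were identical (77.9%), and the alignment is thus offset. Within it the longest identical run had 32 bases. Against the Cd200r2 window the values were 52.0% for Cd200r4 and 56.3% for Cd200r3. The Cd200r1 promoter was not in the promoter set used, so it was not compared. Cd200r1 and Cd200r4 were the pair detected together in most cells, as given further on. They were also the members with most UMIs, and Cd200r3 was left in 7 Jumonji cells at equal depth. The number of cells therefore does not rank the pairs by how closely they go together. Whether the likeness of upstream sequences bears on the levels was not tested. Cd200r4 has other annotated transcripts in GENCODE M21 that start farther upstream, at 44811733 and 44811756, and 3′ counts do not show which start was used.

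Short motifs were searched on both strands of these windows, start-flanking bases included. A PU.1-type motif (GAGGAA), present in 28.3% of 32851 RefSeq promoters, matched at 2 places for Cd200r3 and 0 for Cd200r4. A C/EBP-type motif (TTGCNNAA, 10.8% of promoters) and a GATA-type motif (AGATAA, 11.2%) each matched once in both. An E-box (CANNTG, 72.3%) matched 3 times for Cd200r4 and 2 times for Cd200r3. A STAT-type motif (TTCNNNGAA, 8.30%) and a RUNX-type motif (TGTGGT, 16.8%) matched in neither. No matches overlapped, and a match is a description of letters only.

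Transcripts of the inhibitory receptor Cd200r1 stood higher in the Jumonji library. It had 436 UMIs, or 34.0 CPM (95% Poisson interval 30.9 to 37.4), in Jumonji cells and 59 UMIs, or 4.09 CPM (3.11 to 5.28), in Renilla cells. The ratio was 8.32 (6.33 to 11.1), a log2 ratio of 3.06 (2.66 to 3.47). All intervals here cover counting error only and say nothing of the spread between cultures.

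Cd200r4, the activating-type relative, differed more. It had 411 UMIs, or 32.1 CPM (29.1 to 35.3), in Jumonji cells and 18 UMIs, or 1.25 CPM (0.740 to 1.97), in Renilla cells, a ratio of 25.7 (16.1 to 43.8) or 4.68 (4.01 to 5.45) on the log2 scale. Both genes thus had about the same count in the Jumonji library, while in the Renilla library Cd200r4 was the rarer of the pair. Of 8959 genes with at least 100 UMIs over both libraries, 4.65% stood at least 2-fold higher in Jumonji cells, and Cd200r4 and Cd200r1 took places 10 and 48 in the order of ratios. Because the members were chosen with these ratios known, nothing is read from that.

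Cd200r3 was rare. It had 24 UMIs in Jumonji cells, or 1.87 CPM (1.2 to 2.79), and 0 UMIs in Renilla cells (Poisson interval up to 0.256 CPM). A floor of 3 counts, or 0.208 CPM, was set in place of the 0. Against that floor Cd200r3 was 9.0-fold higher in Jumonji cells (counting interval 2.73 to 46.7), which is not a lower bound. With cells thinned to 10000 UMIs the log2 ratio against the floor was 1.38 (-0.75 to 3.96), an interval that includes no difference. The relative Cd200r2 had 1 UMI in Jumonji cells and 0 in Renilla cells, which gives no comparison. The ligand gene Cd200 had 0 UMIs in both libraries. The exact Clopper-Pearson upper limit for its share of cells was 0.639% in the Jumonji library and 0.605% in the Renilla library. Receptor transcripts were thus counted in cultures whose cells had no detected ligand transcript.

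**Figure D1:**
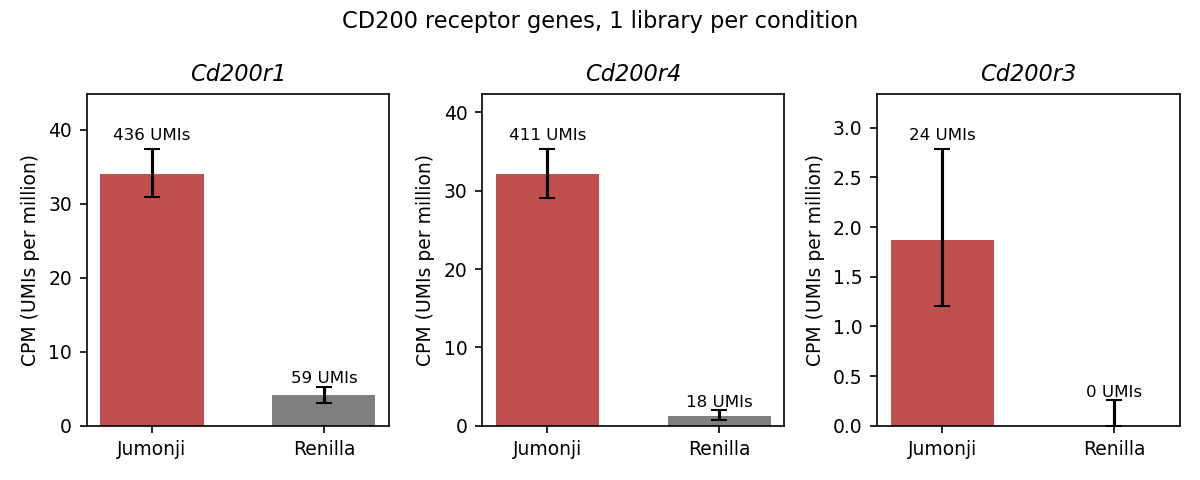
Levels of the 3 members in CPM in the Jumonji and the Renilla library, with bars for the summed UMIs of all kept cells and error bars for the 95% Poisson interval; each panel has its own scale. Cd200r1 and Cd200r4 stood near each other in Jumonji cells at 34.0 and 32.1 CPM, and Cd200r3 had 24 UMIs against 0.

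The members also differed in how many cells carried them. Cd200r1 was detected in 271 of 575 Jumonji cells, or 47.1% (exact Clopper-Pearson interval 43.0% to 51.3%), and in 51 of 608 Renilla cells, or 8.39% (6.31% to 10.9%). Cd200r4 was detected in 186 Jumonji cells, or 32.3% (28.5% to 36.3%), and in 13 Renilla cells, or 2.14% (1.14% to 3.63%). Cd200r3 was detected in 16 Jumonji cells, or 2.78% (1.60% to 4.48%), and in 0 of 608 Renilla cells, with an upper limit of 0.605%.

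With each cell thinned at random to 10000 UMIs, which leaves out 55 Jumonji and 29 Renilla cells below that depth, the order of the libraries was the same. Cd200r1 was then detected in 24.8% of 520 Jumonji cells and 3.97% of 579 Renilla cells, and Cd200r4 in 20.8% and 1.38% of them. Cd200r3 was left with 7 Jumonji cells (1.35%).

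Cd200r4 was spread less evenly over cells than Cd200r1 at a like total. In the Jumonji library the 58 cells with most UMIs of the gene held 58.9% of all Cd200r4 UMIs and 40.8% of all Cd200r1 UMIs. A single cell had up to 10 UMIs of Cd200r4 and up to 7 of Cd200r1, and at least 6 UMIs were found in 8 cells for Cd200r4 and in 2 cells for Cd200r1. At equal depth the variance over cells was 2.43 times the mean for Cd200r4 and 1.54 times the mean for Cd200r1, where Poisson sampling of a common level gives a value of 1.

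Cells were grouped into 7 clusters without using the family, cell cycle genes or genes 1.5-fold apart between the libraries, and the clusters are called by number. Cluster 4, led by Wfdc17, Ctss (cathepsin S), Ccl9 and Lsp1, held 158 Jumonji cells (27.5%) and 19 Renilla cells (3.13%), with medians of 13892.5 and 17978 UMIs, shallower than the other clusters. Cluster 5 was led by S100a9 and S100a8, the calprotectin genes of neutrophils, along with the replication gene Ccne2, and held 106 Jumonji and 14 Renilla cells. Clusters 2 and 7 had the primary granule genes Ctsg and Mpo among their leading genes and held mostly Renilla cells, 191 and 80, against 26 and 24 Jumonji cells. With 1 library a condition, a cluster filled mostly from 1 library may be that library rather than a cell state.

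All 3 members were highest in cluster 4. In the Jumonji library Cd200r4 stood at 110 CPM (96.6 to 123.9) there and at 14.9 CPM (12.6 to 17.4) in the other clusters, and cluster 4 held 62.0% of its UMIs. Cd200r1 was less confined, at 72.6 CPM (62.1 to 84.5) in cluster 4 and 25.5 CPM (22.5 to 28.7) in the others, with 38.8% of its UMIs in cluster 4. Cd200r3 had 22 of its 24 UMIs in cluster 4, at 9.46 CPM (5.93 to 14.3). These are descriptions of cells grouped by their own RNA and carry no test.

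The few Renilla cells of cluster 4 carried the family too. Over its 19 Renilla cells Cd200r1 had 12 UMIs, or 34.5 CPM (17.8 to 60.3), against 3.34 CPM (2.45 to 4.44) in the other Renilla cells. Cd200r4 had 8 UMIs there, or 23.0 CPM (9.93 to 45.3), against 0.711 CPM (0.341 to 1.31). Both genes were thus higher in cluster 4 than elsewhere in the Renilla library as well. Cd200r3 had 0 UMIs in those 19 cells, and against the floor of 3 counts its log2 ratio within cluster 4 was 0.13 (-1.60 to 2.52), so a difference in this cluster was not detectable at this depth.

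The difference between the libraries was seen outside cluster 4 as well. Without cluster 4 the log2 ratio was 2.93 (2.48 to 3.41) for Cd200r1 and 4.39 (3.47 to 5.48) for Cd200r4. Within cluster 4 it was smaller, 1.07 (0.23 to 2.06) for Cd200r1 and 2.25 (1.25 to 3.48) for Cd200r4. In cluster 1, with 116 Jumonji and 128 Renilla cells and led by the DNA repair and replication genes Ung, Dtl and Hells, the log2 ratio was 2.34 (1.61 to 3.14) for Cd200r1. For Cd200r4 it was 3.19 (1.70 to 5.15). The Cd200r4 level in Jumonji cells was 12.6 CPM in cluster 1, 14.9 CPM over all clusters but 4, and 12.1 CPM in cluster 5. Cluster 3 was higher, at 20.3 CPM, and cluster 7, with 24 Jumonji cells, was lower, at 7.03 CPM (2.28 to 16.4). Free RNA, described further on, was not measured. Its part in these levels and in the ratios outside cluster 4 was not tested. In cluster 3, led by mitotic genes such as Nusap1, Cd200r1 had 115 UMIs in 142 Jumonji cells and 8 in 72 Renilla cells, and Cd200r4 had 80 and 1.

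**Figure D2:**
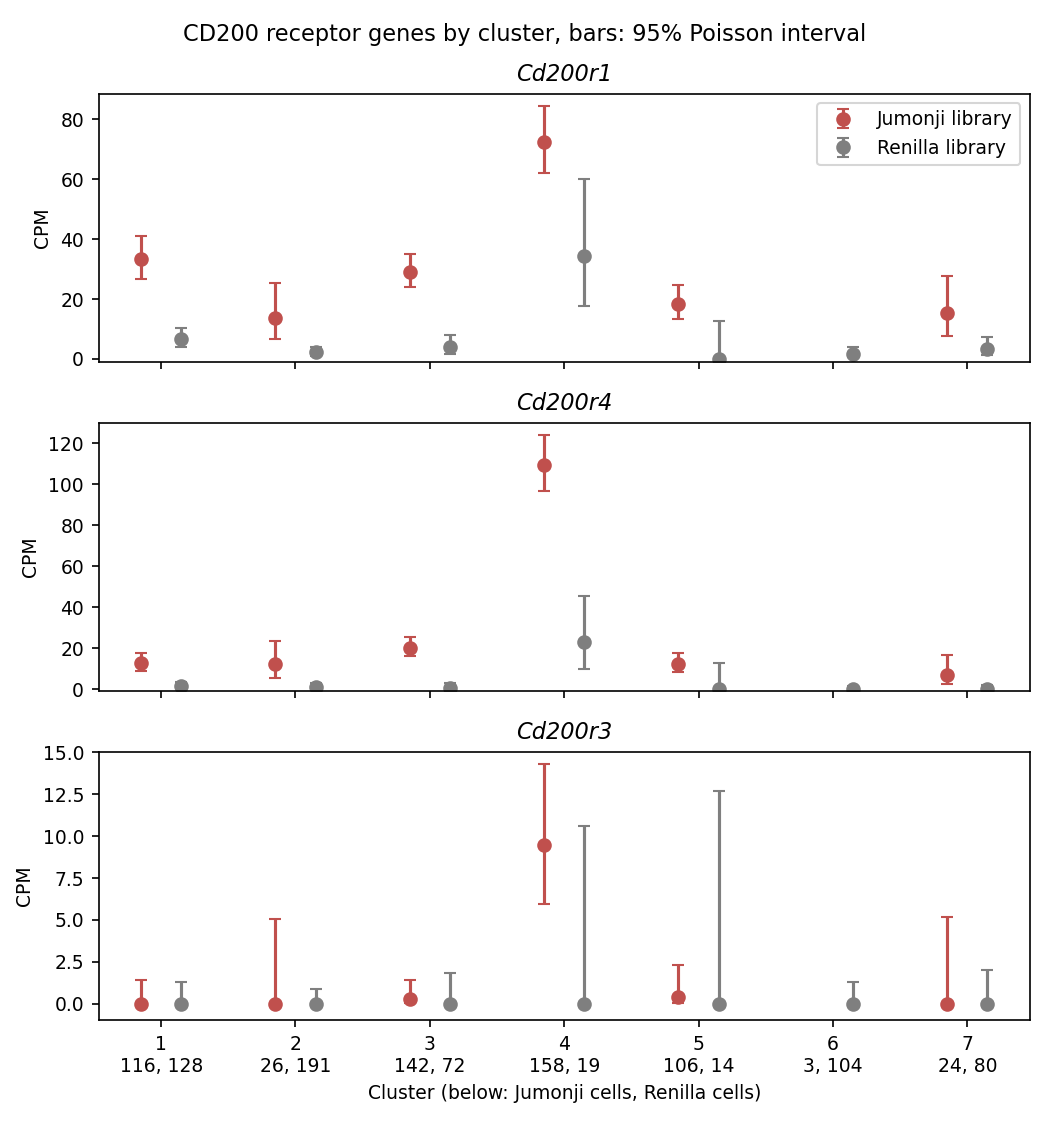
Levels of the 3 members in CPM in each of the 7 clusters, for Jumonji cells and Renilla cells, with 95% Poisson intervals; the numbers under the axis are the cells of each library, and groups under 10 cells are not drawn. Cd200r4 reached 110 CPM in cluster 4 of the Jumonji library, and Cd200r1 and Cd200r4 in Renilla cells were also highest there.

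Free RNA in droplets can place UMIs in cells that do not make them, and it was not measured here, since no cell type that should lack the genes was present. Among clusters of at least 20 Jumonji cells, the lowest share of cells with a Cd200r4 UMI was 14.2% (8.14% to 22.3%), in cluster 5 at a median of 22900 UMIs, against 60.1% (52.0% to 67.8%) in cluster 4. At equal depth the shares were 8.74% and 52.5%, and cluster 7, with 24 cells, was at 8.33%. For Cd200r1 the shares were 29.2% in cluster 5 and 60.1% in cluster 4, or 10.7% and 42.4% at equal depth. Cluster 2, with 26 Jumonji cells, was at 26.9% for Cd200r1, or 15.4% at equal depth. In CPM cluster 5 was not the lowest. Cd200r4 stood at 12.1 CPM there and 7.03 CPM in cluster 7, and Cd200r1 at 18.4 CPM there and 13.7 CPM in cluster 2. These values do not set the level of free RNA. Whether the cells of cluster 5 make the receptors was not tested. Cd200r4 made up 27.5% (19.7% to 36.4%) of the UMIs of both genes in cluster 1 of the Jumonji library, 41.0% in cluster 3, 60.1% (55.3% to 64.8%) in cluster 4, 39.7% in cluster 5 and 31.3% in cluster 7, where it rests on 5 UMIs. The part of free RNA in these values was not tested.

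At a finer resolution, which gave 10 clusters, cluster 4 was split and the members parted from each other. The part led by Wfdc17, Ctss, Ccl9 and Mmp8 held 73 Jumonji cells at a median of 11416 UMIs. There Cd200r4 stood at 183 CPM (156 to 214), Cd200r1 at 94.0 CPM (74.8 to 117) and Cd200r3 at 21.8 CPM (13.1 to 34.0). The other part had the eosinophil gene Prg2 and the neutrophil genes S100a9 and S100a8 among its leading genes, with S100a8 at 741 CPM, and stays unnamed. It held 137 Jumonji cells, 85 of them from cluster 4, with Cd200r4 at 41.4 CPM (33.8 to 50.2), Cd200r1 at 51.4 CPM (42.9 to 61.1) and Cd200r3 at 1.19 CPM (0.246 to 3.49). Cd200r4 was thus above Cd200r1 in the Wfdc17 and Ctss part and not in the other part. In the 8 Renilla cells of the Wfdc17 and Ctss part Cd200r4 had 8 UMIs and Cd200r1 had 6.

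Cd200r1 and Cd200r4 were detected together more often than in cells that lacked the other. At equal depth 53 of 129 Jumonji cells with Cd200r1, or 41.1% (32.5% to 50.1%), also had Cd200r4, against 55 of 391 without Cd200r1, or 14.1% (10.8% to 17.9%). Of 7 cells with Cd200r3, 5 had Cd200r4 and 3 had Cd200r1. In the Renilla library 1 of 23 cells with Cd200r1 had Cd200r4, too few for a comparison.

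Jumonji cells with both receptors had fewer neutrophil transcripts on average, a difference that showed in the means of the list far more than in its medians. The neutrophil list had a mean of 2.32 UMIs per 10000 in the 53 cells with both, 5.13 in the 55 with Cd200r4 without Cd200r1, 11.7 in the 76 with Cd200r1 without Cd200r4 and 15.9 in the 336 with neither. The medians were only 1, 1, 2 and 2 UMIs, and 40 of 53 cells with both and 272 of 336 cells with neither had a UMI of the list. Summed by cluster, the list stood at 1338 CPM in Jumonji cells of cluster 4, where the receptors were highest, and at 1758 CPM in cluster 5 and 1113 CPM in cluster 3. S100a8 alone averaged 0.113 UMIs in cells with both and 7.31 in cells with neither. It was detected in 6 of the 53 cells with both and 116 of the 336 with neither, and S100a9 in 2 and 81 of them. The promyelocyte list, of primary granule genes, followed the same order with means of 7.32, 8.93, 16.5 and 19.5 UMIs per 10000.

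The monocyte and macrophage list ran the other way, with a mean of 13.7 UMIs per 10000 in cells with both receptors and 5.75 in cells with neither. So did Cd34, a surface protein of progenitors, with 9.85 UMIs in cells with both and 5.03 in cells with neither. Cd34 made up nearly all of the stem and progenitor list, whose means were 10.4 and 5.76 UMIs, so that list is read as this gene alone. Wfdc17 averaged 9.08 and 2.14 UMIs, and Tyrobp, the adaptor of the activating relatives, 46.4 and 33.1 UMIs. The eosinophil list was at 0.377 UMIs in cells with both and 0.821 in cells with neither.

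**Figure D3:**
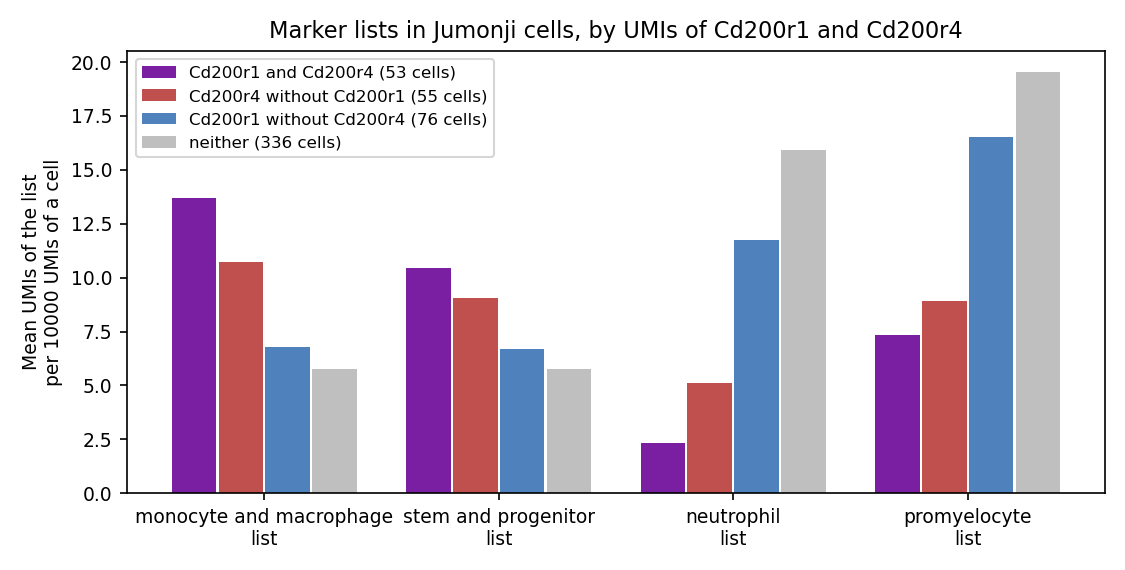
Mean UMIs of 4 marker lists per 10000 UMIs of a cell in the Jumonji library, by whether the cell had a UMI of Cd200r1 and of Cd200r4 after thinning. The monocyte and macrophage list averaged 13.7 in cells with both receptors and 5.75 in cells with neither, and the neutrophil list 2.32 and 15.9.

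Receptor transcripts were most frequent in cells called G1 from cell cycle genes. In the Jumonji library Cd200r4 was detected in 43.0% (34.7% to 51.5%) of 142 G1 cells, 12.5% (7.45% to 19.3%) of 136 S cells and 12.4% (8.52% to 17.2%) of 242 G2/M cells. Cd200r1 was detected in 40.8%, 15.4% and 20.7% of these cells. In the Renilla library Cd200r1 was detected in 10 of 76 G1 cells, or 13.2% (6.49% to 22.9%), 6 of 192 S cells and 7 of 311 G2/M cells. Of the 135 thinned cells of cluster 4, 124 were called G1, so the 2 patterns overlap. Phase calls read free RNA as well and say nothing of how fast cells divided.

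The 16 cells with Cd200r3 lay in cluster 4 in 14 cases, and their median depth was 12610.5 UMIs. Of these 16, 12 (75%) had Cd200r4 and 11 (68.8%) had Cd200r1, against 31.1% and 46.5% of the other Jumonji cells. Among all 158 Jumonji cells of cluster 4 each gene was detected in 60.1%, so most of this contrast was shared by that cluster. Few basophil and mast cell genes, of the cells that CD200R3 is known from in mouse, could be read here, since Prss34 and Fcer1a had 0 UMIs in both libraries and Mcpt8 had 9 in all other Jumonji cells. The detected ones differed in direction. Cpa3, the mast cell carboxypeptidase, had 29 UMIs in 6 of the 16 cells, or 132 CPM, against 4.77 CPM in the other Jumonji cells, with 11 and 10 of these UMIs in 2 cells. Cpa3 was not particular to these cells. In the whole Wfdc17 and Ctss part it stood at 52.7 CPM in Jumonji cells. The 8 Renilla cells of that part had Cpa3 at 182 CPM and 0 UMIs of Cd200r3. Hdc, the histamine-forming enzyme, stood at 18.2 CPM in the 16 cells and 78.7 CPM in the others, and Gata2 at 18.2 and 25.9 CPM. The 16 cells were picked by their own RNA and Cpa3 was singled out after its value was seen, so this is a description. The basophil and mast cell list as a whole had 141 CPM in the Jumonji library and 162 CPM in the Renilla library.

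The partners of CD200R1 differed little, apart from Dok2. Dok2, which binds the receptor's tail, stood at 56.0 CPM in Jumonji cells and 23.1 CPM in Renilla cells, a log2 ratio of 1.28 (1.09 to 1.47). Dok1 was at 0.13 (-0.10 to 0.37), Dok3 at 0.38 (0.28 to 0.48), Rasa1 at -0.39 (-0.64 to -0.14) and its relative Rasa2 at -0.55 (-0.74 to -0.35). Of 8 measured genes of this list (at least 50 UMIs over both libraries), 1 was at least 2-fold higher and 0 were at least 2-fold lower in the Jumonji library, with a median log2 ratio of 0.19. Over all 9922 genes with that many UMIs, 5.49% were 2-fold higher and 2.06% 2-fold lower, and the median was -0.06. Of 5 measured inhibitory phosphatases none was 2-fold apart, and the ends were Ptprc (CD45) at 0.72, Ptpn6 (SHP-1) at 0.58, Ptpn11 (SHP-2) at -0.23 and Inppl1 at -0.36, with a median of 0.28.

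Adaptors that the activating relatives use were higher. Tyrobp stood at 3301 CPM in Jumonji cells and 1547 CPM in Renilla cells, with a log2 ratio of 1.09 (1.07 to 1.12). Fcer1g, another adaptor with an activating motif, was at 1.10 (1.06 to 1.14), and Lcp2 (SLP-76) at 1.18 (0.97 to 1.39). At equal depth Tyrobp was detected in each of the 520 Jumonji and 579 Renilla cells, those without a receptor UMI included. Of 14 measured adaptor and proximal signalling genes 4 were 2-fold higher and 0 lower, the median was 0.14, and the lowest were Vav2 at -0.44 (-1.30 to 0.40) and Card9 at -0.14 (-0.33 to 0.05). Without cluster 4 the higher ones numbered 1 of 13. With all kept cells, 5.49% of the 9922 genes with at least 50 UMIs were 2-fold higher.

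Other receptors of the same 2 kinds stood higher in the Jumonji library together with the family. All 6 measured genes listed as activating receptors that use TYROBP, a pairing not examined here, were at least 2-fold higher, with a median of 2.68. The ends were Pilrb1 at 2.89 (2.52 to 3.28) and Cd300lb at 2.86 (2.31 to 3.46), against Cd300ld at 2.20 (1.33 to 3.15) and Trem3 at 1.89 (1.33 to 2.48). Pilrb1 and Pilrb2 are close copies whose UMIs may be split between them. Of 14 measured inhibitory receptors, 11 passed 2-fold upward and 0 downward, with a median of 1.63. Cd300lf was at 3.19 (2.75 to 3.67) and Pilra at 3.15 (2.89 to 3.43), against Clec12a at 0.39 (0.18 to 0.60) and Btla, whose ligand lies outside the family, at 0.19 (-0.31 to 0.69). Of the ligand list, Cd47, the ligand of SIRPA, was at 0.67 (0.63 to 0.72), Sox4 at 0.19 and Trp53 at -0.07, so none of 3 measured genes was 2-fold apart and the median was 0.19.

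**Figure D4:**
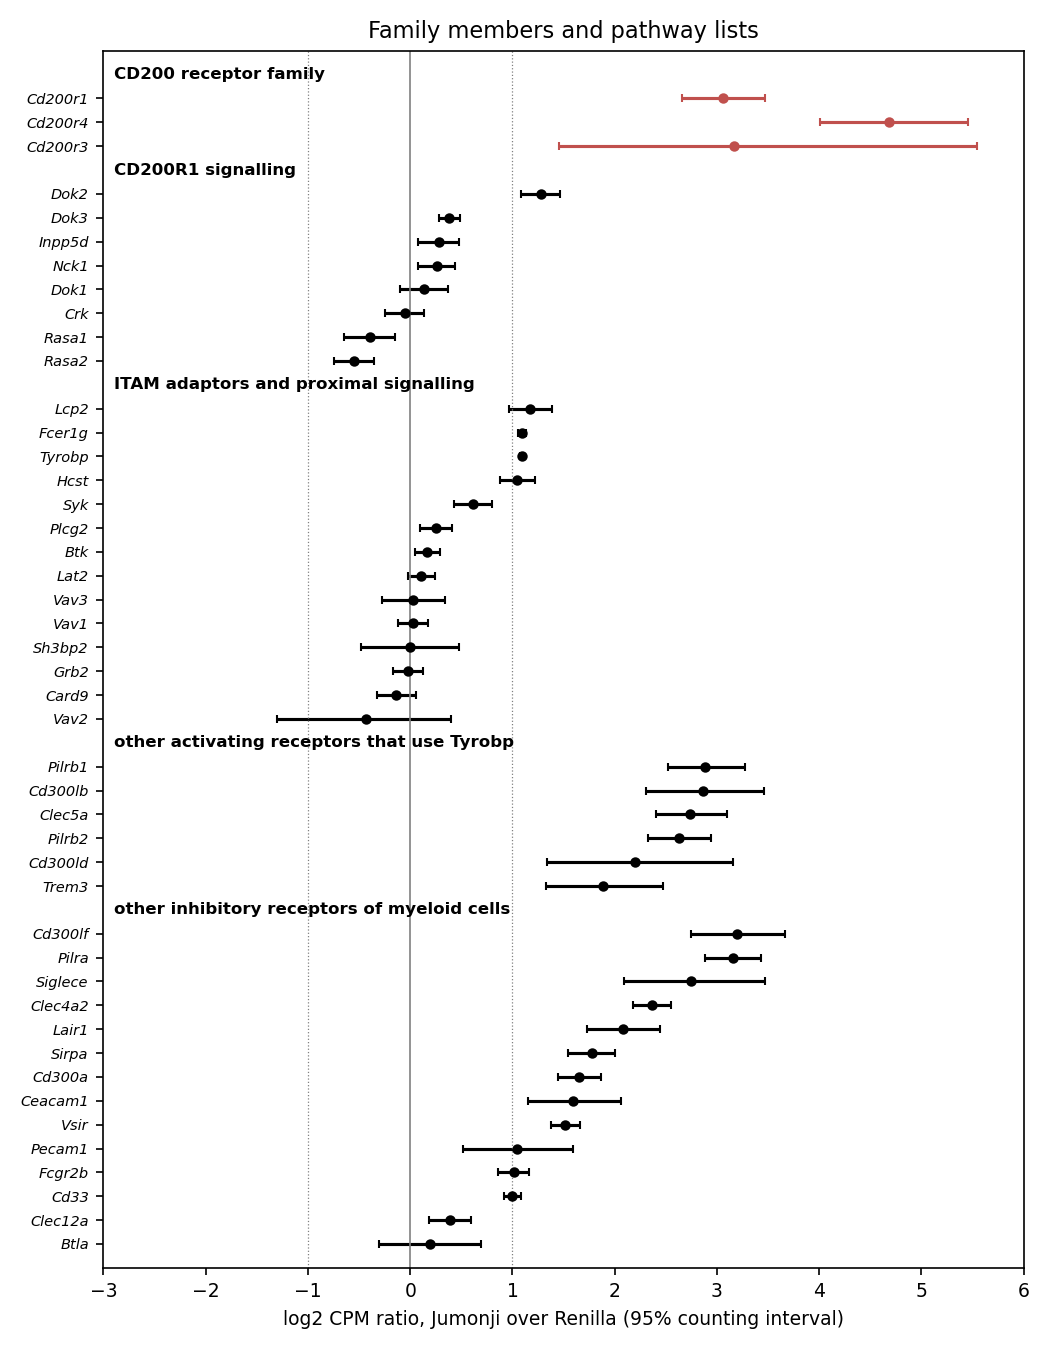
Log2 CPM ratios, Jumonji over Renilla, with 95% counting intervals for the 3 members (red) and for the measured genes of 4 pathway lists (black); dotted lines mark 2-fold, and Cd200r3 is set against the floor of 3 Renilla counts. Cd200r4 at 4.68 lay above every listed receptor drawn, and Dok2 at 1.28 was the one CD200R1 partner past 2-fold. Receptor genes outside the lists are not drawn. Of these, Lilr4b at 5.81, Lilrb4a at 5.55 and Lilra6 at 4.72 stood higher than Cd200r4, and Pira2 at 4.37 stood lower. They were named after their values were seen.

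Genes around the family on chromosome 16 were compared to see whether the difference ran across the region. Of 13 further genes with a start within 500 kb of the members that were in the files, 7 had at least 100 UMIs, and 1 of them, Ccdc80, was 2-fold higher, where 4.65% of all 8959 genes with that minimum were. Ccdc80, a secreted matrix-associated protein gene at 45093402 to 45128077, is the next gene after Cd200r3 in the annotation and stood at 39.6 CPM (36.2 to 43.2) in Jumonji cells and 8.25 CPM (6.84 to 9.88) in Renilla cells, a log2 ratio of 2.26 (1.97 to 2.56). On the other side the nearest genes were Gtpbp8 at 0.39 (0.10 to 0.67) and Nepro at -0.05 (-0.47 to 0.37). Beyond Ccdc80, Slc35a5 was at 0.62 (0.21 to 1.04), the autophagy gene Atg3 at 0.51 (0.39 to 0.62) and Btla at 0.19. Spice1 was at -0.54 (-1.04 to -0.05), and Cfap44, with 8 UMIs in Jumonji and 26 in Renilla cells, was below the minimum, as were Boc with 1 UMI and Cd200r2 with 1, and Sidt1, Gm26732 and Cd200 with none. The median of the 7 was 0.39.

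**Figure D5:**
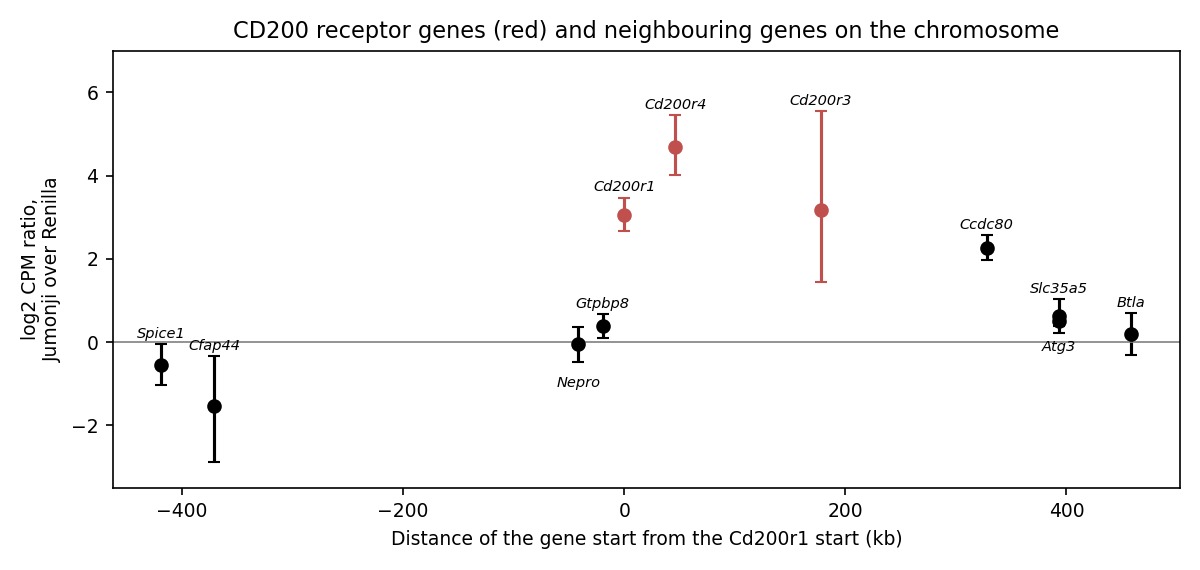
Log2 CPM ratios, Jumonji over Renilla, with 95% counting intervals against the distance of the gene start from the start of Cd200r1 in kb, for the 3 members (red) and neighbouring genes (black) above the floor in at least 1 library. The members and Ccdc80, at 2.26, stood above their neighbours on either side.

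By correlation over cluster profiles, Ccdc80 was also, narrowly, the gene most like Cd200r4. Over the 11 cluster-by-library profiles of at least 20 cells, Pearson's r of log2(CPM + 10) between Cd200r4 and Ccdc80 was 0.989, the highest among genes with at least 100 UMIs. The profiles share 2 libraries and the clusters differ in depth, so this is a description. Cluster 4 entered from the Jumonji library alone, with Cd200r4 at 110 CPM. In the Renilla profiles Cd200r4 was at most 1.39 CPM, so 1 profile weighs heavily in these correlations. In cluster 4 Ccdc80 stood at 110 CPM (97.0 to 124) in Jumonji cells and 71.9 CPM (46.5 to 106) in Renilla cells. The other genes most like Cd200r4 were Cd300lb at 0.989, S100a4 at 0.984, Fbp1 and Tmcc3 at 0.983, Gabarapl2 at 0.982, Cyp4f18 at 0.980, the ferritin gene Fth1 at 0.979, Dhrs3 at 0.978 and Wfdc17 at 0.971.

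Those most like Cd200r1 were led by P2rx1, an ATP-gated channel, at 0.981, Fgl2 at 0.979, Gabarapl2 at 0.977 and Cd34 at 0.976. Ctsc, Cd53, Wfdc17, Cd300lf, the kinase gene Lyn and Btg1 followed at 0.974 to 0.968. Cd200r4 came at place 73 in that order with 0.943, and Cd200r1 at place 49 in that of Cd200r4.

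Marker lists moved with the family between the libraries, and their part in the result was not tested. Of 8 measured monocyte and macrophage genes 5 were past 2-fold upward and 1, Ccr2, downward, and the list summed to 628 CPM in Jumonji and 150 CPM in Renilla cells, led by Lgals3 at 393 and 55.3 CPM and Adgre1 at 108 and 40.4 CPM. Of 9 neutrophil genes 7 were higher and 1, Camp, lower, at 1126 and 216 CPM in sum, led by S100a8 at 498 and 64.3 CPM and S100a9 at 337 and 41.8 CPM. Of 5 eosinophil genes 4 were higher, at 82.5 and 35.4 CPM, with Prg3 at 0.73 and Prg2 at 2.54 on the log2 scale. All 5 promyelocyte genes were lower, at 1808 CPM in Jumonji and 5221 CPM in Renilla cells, with Prtn3 at -1.15 and Elane at -1.28. These lists thus differed between the libraries in both directions.

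The other lists were small or near even. None of 5 stem and progenitor genes was 2-fold apart, with Cd34 at 0.81 and Gata2, which is also in the basophil list, at 0.24. Of 6 basophil and mast cell genes 0 were higher and 1, Mcpt8, lower, with Hdc at -0.37. Cd74 was the 1 measured gene of antigen presentation, with 106 UMIs in Jumonji and 3 in Renilla cells. Pf4 (3.86) was higher and Itga2b (0.80) was not among 3 megakaryocyte genes, Pecam1 (1.04) was and Pdgfrb (0.26) was not among 2 stromal genes, Nkg7, the 1 lymphoid gene, was at 0.04, and Klf1 and Hba-a1 of the erythroid list had 19 and 7 UMIs in Jumonji and 24 and 19 in Renilla cells. The macrophage genes C1qa and C1qc, the mast cell genes Tpsab1, Tpsb2 and Cma1 and the eosinophil receptor gene Ccr3 had 0 UMIs in both libraries.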

How the data were processed

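The authors deposited raw UMI counts per gene and cell barcode for 1 Jumonji library (652 barcodes) and 1 Renilla library (651). Per the labels' protocols these were 10x Genomics Chromium 3′ version 2 libraries, and Cell Ranger 1.3.1 and the build mm10 are named, per the submitters' processing notes. Cell calling and gene models were not given in the sources used here. Positions came from GENCODE M21, which held 27645 of the 27998 identifiers.

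The members and all gene lists were chosen with earlier results of these data known. UMIs of kept cells were summed per library. Log2 ratios have the exact conditional binomial interval, with a floor of 3 counts at 0. No test between conditions was possible. Scrublet marked 4 Jumonji (0.696%) and 10 Renilla cells (1.64%), which were kept. Clusters were made jointly with scanpy 1.11.5 and leidenalg 0.10.2 (2000 variable genes, 30 components, 15 neighbours, resolution 0.6), leaving out 5484 genes. A cluster would be named only with 3 markers of a type among its 10 leading genes; cluster 5 had 3 neutrophil markers beside replication genes and stays numbered. Named genes were the family, for each pathway list the 2 highest and 2 lowest with at least 50 UMIs plus Tyrobp, Fcer1g, Dok1, Dok2 and Rasa1, for each marker list the 2 with most UMIs, the 10 genes most like each member, and neighbours within 500 kb; further marker genes were named after their values were seen. Cd300c2, Azu1 and Ighm of the lists matched no identifier. The ratio and its interval were tested on simulated counts. Alternatives covered cell filters, depth, scale, clusters and count minimum.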

Additional observations from a re-analysis of the deposited data

Results flagged for a closer look

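The family was also counted in the barcodes left out for more than 10% mitochondrial UMIs, 77 in the Jumonji and 43 in the Renilla library, which enter no other result apart from the alternative with all barcodes. They drew attention because the Jumonji level lay above the control. Cd200r1 stood at 164 CPM (127 to 207) in the excluded Jumonji barcodes, with 69 UMIs in 39 of them. The excluded Renilla barcodes had 0 UMIs of it, with a Poisson upper limit of 14.6 CPM. Cd200r4 stood at 258 CPM (212 to 312), with 109 UMIs in 43 barcodes, again against 0. Both were above the level of the kept Jumonji cells, 34.0 and 32.1 CPM. These barcodes held 421807 UMIs in all, and whether they are damaged cells was not tested.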

How the results depend on the processing

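Of 86 recomputed values 12 moved beyond the counting interval or by more than 1.5 times. Only the log2 ratios of the members could turn direction, and none did. Shares of cells, shares of UMIs and counts of genes had no direction to turn. As a mean of ratios within the 4 clusters of at least 20 cells per library (1, 2, 3 and 7), the log2 ratio was 2.53 for Cd200r1 and 3.50 for Cd200r4. This leaves out cluster 4, with 19 Renilla cells and log2 ratios of 1.07 and 2.25, and for Cd200r4 it rests on 1 Renilla UMI in cluster 3 (5.35) and on the floor in cluster 7 (2.10). Thinning each cell to 10000 UMIs lowered the shares of cells to 24.8% (Jumonji) and 3.97% (Renilla) for Cd200r1, 20.8% (Jumonji) for Cd200r4 and 1.35% (Jumonji) for Cd200r3, whose log2 ratio against the floor was then 1.38; fewer UMIs per cell produce this by construction. At resolution 1.0 the leading cluster held 29.6% of Cd200r1 and 38.9% of Cd200r4 UMIs, as cluster 4 was split. Lower genes numbered 204 at a minimum of 50 UMIs and 83 at 200, against 133. Without cluster 4, 1 adaptor gene was 2-fold higher, against 4; the cause was not tested. For Cd200r3 no mean over cells was given, as the Renilla mean was 0, and no within-cluster mean or ratio without cluster 4, as outside it Jumonji cells had 2 UMIs, under the floor of 3. No paired analysis was possible because each condition has 1 library. Depth limits Cd200r3 and the Renilla cells of cluster 4.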
